A study of Mus musculus with 8 samples.

Results

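Gad1, Gad2 and Slc32a1 encode the proteins that make GABA, the main inhibitory transmitter of the brain, and load it for release. They were examined in 8 lists of regions enriched for H3K27ac, an acetylation of histone H3 at lysine K27 that marks active promoters and enhancers, from mouse neuronal cultures. The 3 genes are taken out of 21631 protein-coding genes, and a window for each was formed by its gene span plus 50 kb to each side. Every peak that touched a window was used, 158 in all, with 28 at Gad1, 65 at Gad2 and 65 at Slc32a1. The genes and window size were set by name and distance and use no peak value, though earlier results of these data were known.

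Gad1 and Gad2 encode the larger and the smaller glutamic acid decarboxylase, which convert glutamate to GABA. The product of Gad1 is found throughout the cell, and that of Gad2 is concentrated at nerve terminals. Slc32a1 encodes the vesicular GABA transporter, which pumps GABA and glycine into synaptic vesicles. The 3 genes together are the classical signature of GABAergic neurons, and in the cortex they are used by interneurons, many of which are born in the medial ganglionic eminence.

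The 8 libraries formed 4 groups of 2: CTX cultures with and without KCl, and MGE cultures with and without KCl, each with libraries numbered 1 and 2. MGE is the usual short form for the medial ganglionic eminence, and CTX for cortex. All 4 groups came from C57/BL6 mice and shared the same silencing: on day 6 in vitro, 1 µM TTX (tetrodotoxin, which blocks sodium channels) and 100 µM D-AP5 (which blocks NMDA receptors) were given overnight. On day 7 the KCl groups received 55 mM KCl for 2 h, which depolarises neurons and lets calcium in, and the unstimulated groups did not. The series title concerns single enhancers and experience-dependent plasticity of GABAergic circuits. As models the groups have limits that the labels themselves raise. The CTX titles give embryonic day 14 and the source of all 8 libraries gives embryonic day 16, and the cell type field calls all of them cortical neurons, the MGE libraries included. The titles call libraries 1 and 2 biological replicates but do not say whether embryos, cultures or days were kept separate, so p-values measure only the spread between libraries, which may be technical.

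Each list had between 36035 and 66827 peaks, over 21.1 to 44.7 Mb, with the most in library 2 of both CTX groups. To take out these totals, the level of a window is given as called bases per Mb called in that library (bp per Mb). Among windows of MGE and GABAergic marker genes, 5 of 13 with peaks had all 4 MGE libraries above all 4 CTX libraries (Lhx6, Nkx2-1, Sst, Erbb4 and Maf) and 1 the reverse (Satb1), with 10.9% of all windows in the first class and 10.8% in the second. The summed level of that list was 2625 to 3132 bp per Mb in MGE and 1750 to 1951 in CTX libraries. Nkx2-1, the regulator that defines the MGE, had no called base in any CTX library, and Lhx8 had none in any library. CTX libraries were above MGE libraries at 7 of 12 projection neuron markers (summed levels of 891 to 1447 against 618 to 770), 4 of 7 astrocyte markers (838 to 1000 against 188 to 598), 4 of 6 oligodendrocyte lineage markers (951 to 1198 against 278 to 455) and 2 of 6 progenitor markers (604 to 727 against 326 to 508). At microglia markers MGE libraries were above at 1 of 5 (Csf1r), with summed levels of 417 to 486 against 319 to 397. The counts depended on the setting: with a −log10 q of at least 5, 2 MGE markers (Lhx6 and Maf) and 0 projection neuron, 3 astrocyte, 2 oligodendrocyte lineage, 0 microglia and 1 progenitor marker (Nes) separated the cultures in those directions, and with equal called bases 3 projection neuron markers did. The part of these other cell types in the results was not tested, and in such mixed cultures fewer GABAergic cells and less acetylation per cell cannot be told apart.

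The 3 genes lie on chromosome 2, on the plus strand (GRCm38.p6, the assembly of mm10). Gad1 (gene ID 14415) spans 70561303 to 70602014, Gad2 (gene ID 14417) spans 22621015 to 22693877, and Slc32a1 (gene ID 22348) spans 158607260 to 158615747. Other genes touching the windows were Erich2, Gad1os, Gm16510 and Gm46745 at Gad1, Myo3a, Mir3967 and Gm13338 at Gad2, and Gm14204, Actr5 and Mir3474 at Slc32a1. The 250 bases before each RefSeq transcription start are shown because the calls at Gad1 and Slc32a1 stopped short of the start, so that part or all of these bases lay between peaks. They are written 5′ to 3′ from the RefSeq promoter table, with CG dinucleotides in capitals, and cover chr2:70561879-70562128, chr2:22622077-22622326 and chr2:158610508-158610757.
Gad1: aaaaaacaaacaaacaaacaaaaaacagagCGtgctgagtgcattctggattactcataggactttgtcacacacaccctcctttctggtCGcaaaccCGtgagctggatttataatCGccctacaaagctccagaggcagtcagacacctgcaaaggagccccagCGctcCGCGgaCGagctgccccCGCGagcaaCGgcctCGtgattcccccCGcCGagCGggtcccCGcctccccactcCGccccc
Gad2: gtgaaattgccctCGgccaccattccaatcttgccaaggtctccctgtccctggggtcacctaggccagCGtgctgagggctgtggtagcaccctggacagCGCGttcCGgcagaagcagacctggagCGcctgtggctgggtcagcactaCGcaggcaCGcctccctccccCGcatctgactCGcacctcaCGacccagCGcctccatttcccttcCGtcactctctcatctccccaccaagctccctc
Slc32a1: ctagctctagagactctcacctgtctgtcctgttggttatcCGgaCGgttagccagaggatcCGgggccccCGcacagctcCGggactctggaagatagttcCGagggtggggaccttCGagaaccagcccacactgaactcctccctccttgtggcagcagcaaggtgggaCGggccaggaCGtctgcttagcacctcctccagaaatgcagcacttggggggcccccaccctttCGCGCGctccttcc
All 3 promoters held more CG dinucleotides than the median promoter. Counting 300 bases (250 before and 50 after the start), Gad1 held 21 CG dinucleotides, Gad2 held 14 and Slc32a1 held 17, against a median of 7 over 32851 promoters, and these counts stood at percentiles 75.2, 63.7 and 68.6. Their GC content was 60.0, 61.3 and 63.3%, against a median of 52.7%. Both strands were searched for the homeodomain core TAATTA, the AP-1 site TGANTCA, the CRE TGACGTCA and the E-box CAGCTG, none of which contains another. No match was found in the 3 promoters, while 5.29, 7.81, 1.79 and 16.3% of all promoters of that length held one, in that order. The absence of a match says only that these letters are not in this window.

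**Figure D1:**
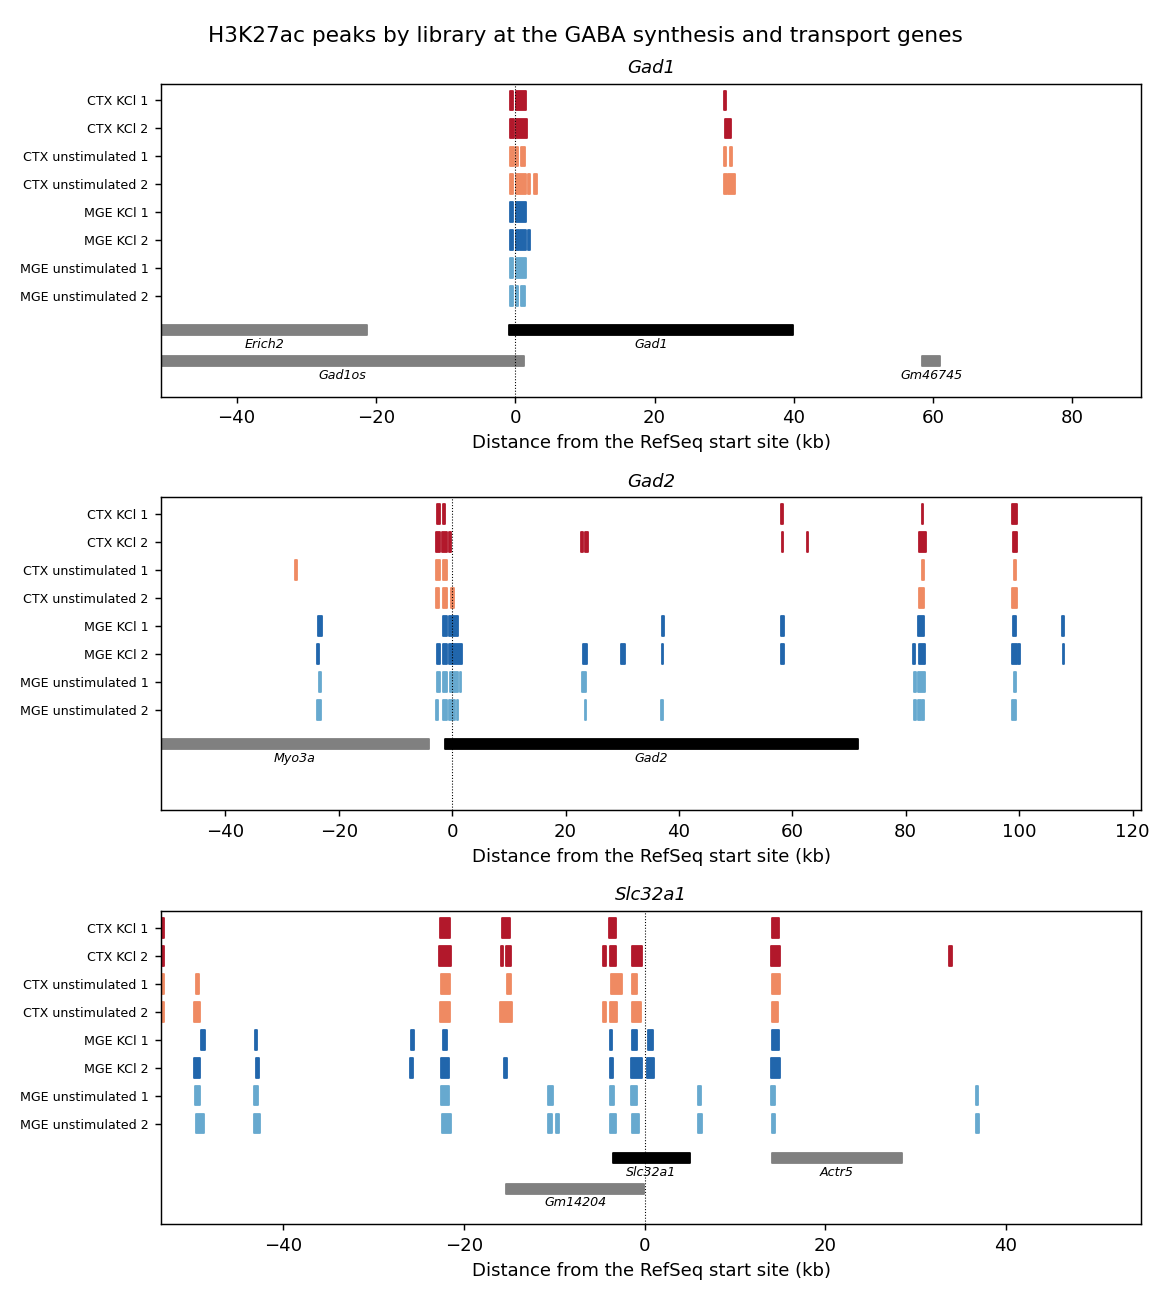
Peaks of the 8 libraries (rows) in the windows of Gad1, Gad2 and Slc32a1 against the distance in kb from the RefSeq start, with gene spans drawn as bars. The Gad1 peaks lie within the gene span, those of Gad2 spread to both sides, and those of Slc32a1 lie mostly before the gene.

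Of the 3 genes, Gad2 had the largest difference between cultures. Its window held 2.75 times as many called bases per Mb in MGE as in CTX libraries. The 4 MGE libraries had 273.1 and 276.1 bp per Mb with KCl and 254.4 and 274.3 without. The 4 CTX libraries had 77.4 and 114.8 with KCl and 110.2 and 89.3 without. Every MGE library was above every CTX library, with the lowest MGE value at 254.4 and the highest CTX value at 114.8. The means were 269.5 ± 10.1 and 97.9 ± 17.6 bp per Mb (SD, n = 4 each), a difference of 171.5 with p = 0.0286 in an exact two-sided permutation test over 70 splits. That is the smallest p these 8 libraries can give, and with labels permuted within treatment the exact permutation p was 0.0556, again the smallest possible. Adjusted over 18557 windows (Benjamini-Hochberg) it was 0.132. No window passed 0.05 after adjustment, against 4016 windows before it (21.6%). Complete separation in this direction held for 10.9% of windows. The signed difference, MGE minus CTX, stood at percentile 99.3 of all windows. In that ranking windows with CTX above count as lower, even those with a larger difference, such as Olig2 (−246.0). Window length was not taken into account. The separation held in plain called kb (5.78 to 8.85 kb in MGE against 2.20 to 5.13 kb in CTX libraries) and without any 1 library. It ended when peaks of low significance were left out: with a −log10 q of at least 5 the difference was 118.5 bp per Mb (p = 0.0571 by the exact permutation test).

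Within the Gad2 window the excess lay in the gene and beyond its end. The gene span held 130.5 ± 16.6 bp per Mb in MGE and 26.7 ± 17.1 in CTX libraries (SD, n = 4 each; exact permutation p = 0.0286), with ranges of 114.4 to 152.4 and 12.4 to 50.9. The 50 kb after the span held 93.0 ± 6.73 against 39.4 ± 2.31 (SD, n = 4 each; exact permutation p = 0.0286). In the 50 kb before it, occupied by Myo3a, a myosin gene that ends 4.08 kb before the Gad2 start, the values overlapped, with 46.0 ± 11.2 against 31.9 ± 16.2 (SD, n = 4 each; exact permutation p = 0.229). This split of the window was chosen after the data were seen.

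The region over the Gad2 start showed the contrast base by base. Merging the peaks of all libraries there gave a region from 22621772 to 22624026, which is 0.555 kb before to 1.70 kb after the start. MGE libraries had 1627 and 2255 called bases in it with KCl and 1772 and 1311 without. CTX libraries had 0 and 368 with KCl and 0 and 610 without. All MGE libraries thus had more called bases than any CTX library, and the start itself lay in a peak in 5 libraries, the 4 MGE ones and CTX unstimulated 2. A pair of 500 bp bins just inside the gene, starting at 22622501 and 22623001, were called in every MGE and in no CTX library, a pattern of 1.75% of called bins. Close by, the called lengths differed less. A region 1.71 to 0.817 kb before the start had peaks in all 8 libraries, with 591 to 713 bases in MGE and 355 to 827 in CTX. Another, 2.86 to 2.17 kb before the start, had 457 to 649 bases in the 4 CTX libraries. It had 381 to 544 bases in 3 MGE libraries and none in MGE KCl 1. Downstream of the gene, regions 82.1 to 83.5 kb and 98.7 to 99.6 kb after the start had peaks in all 8 libraries. Over the latter, the fold enrichment over background that the authors deposited for each peak was 3.58 to 5.94.

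Over the 3 windows, the peaks merged into 36 regions, 5 at Gad1, 15 at Gad2 and 16 at Slc32a1. Of these, 8 had a peak in all 8 libraries, 2 at Gad1, 3 at Gad2 and 3 at Slc32a1 (11.4% of 113591 regions in the genome have this pattern), and 7 had a peak in 1 library. Peaks in 1 culture alone were found in 20 regions, 13 in MGE and 7 in CTX, mostly in 1 to 3 libraries. Of the 113591 regions in the genome, 62099 had a peak in at least 1 MGE library and 87257 in at least 1 CTX library. Regions with CTX peaks alone are thus the commoner kind in the genome, the reverse of the order in the 3 windows. For regions with a peak in 1 library the genome share was not computed. A peak in all 4 MGE and no CTX libraries was found in 2 regions, with 2.68% in the genome. One lay in Myo3a, 23.8 to 22.9 kb before the Gad2 start, with 666, 309, 299 and 610 bases in MGE KCl 1 and 2 and MGE unstimulated 1 and 2. The other lay 43.2 to 42.5 kb before the Slc32a1 start, with 253, 373, 439 and 732 bases in the same order. The reverse, all 4 CTX and no MGE libraries, was also found in 2 regions, 1 in the Gad1 gene and 1 at the edge of the Slc32a1 window, with 4.83% in the genome. Neither kind of region was left when peaks were limited to a −log10 q of at least 5.

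**Figure D2:**
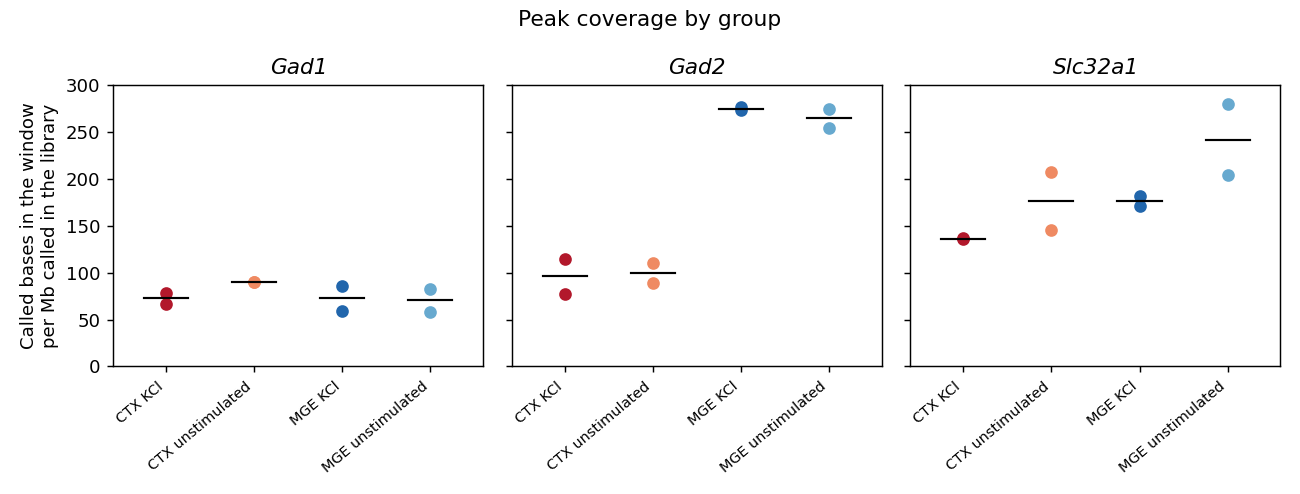
Called bases per Mb in each window by group, 1 point per library and a bar at the group mean. At Gad2 the 4 MGE libraries sit between 254.4 and 276.1 and the 4 CTX libraries between 77.4 and 114.8, while the cultures overlap at Gad1 and Slc32a1.

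Gad1 carried calls in both cultures at a similar level. MGE libraries had 85.8 and 59.5 bp per Mb with KCl and 82.6 and 58.1 without. CTX libraries had 78.4 and 66.5 with KCl and 89.7 and 90.0 without. The cultures overlapped, with means of 71.5 ± 14.8 in MGE and 81.2 ± 11.2 in CTX (SD, n = 4 each), a difference of −9.64 (exact permutation p = 0.314, Benjamini-Hochberg adjusted p = 0.518). The scale changed this call: in plain kb MGE libraries had 1.22 to 1.91 kb and CTX libraries 2.11 to 3.87 kb, with no overlap (exact permutation p = 0.0286), in a scale where 15% of windows have CTX above MGE. With equal called bases CTX was also above MGE without overlap, with a difference of −35.1 bp per Mb (exact permutation p = 0.0286), as in 11.8% of windows.

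All Gad1 calls lay within the gene span, and none in the 50 kb to either side, where Erich2 and the lncRNA gene Gad1os lie. Gad1os overlaps the start, so acetylation there cannot be given to one of the pair. A pair of regions flanked the start in all 8 libraries. The first reached from 0.815 to 0.227 kb before it and held 438 to 584 bases per library. The second reached from 0.069 to 1.67 kb after it and held 710 to 1592 bases per library. Deeper in the gene, 30.0 to 31.5 kb after the start (70592110 to 70593617), all 4 CTX libraries had a peak and no MGE library did. That region held 246 and 807 bases in CTX KCl 1 and 2, and 633 and 1215 in CTX unstimulated 1 and 2, and the deposited −log10 q of its peaks reached 1.87 to 5.85. Whether it lies in an exon or an intron is not known from the annotation used here.

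At Slc32a1 the mean was higher in MGE cultures, but the libraries overlapped. MGE libraries had 171.1 and 181.6 bp per Mb with KCl and 203.7 and 279.2 without. CTX libraries had 137.0 and 135.4 with KCl and 206.8 and 145.1 without. The means were 208.9 ± 48.8 and 156.1 ± 34.1 (SD, n = 4 each), a ratio of 1.34 and a difference of 52.8 (exact permutation p = 0.114, Benjamini-Hochberg adjusted p = 0.292). CTX unstimulated 1 stood above 3 of the MGE libraries, and the difference turned to −0.249 kb in plain kb. Parts of the window did not separate the cultures either: the gene span held 51.5 ± 11.8 against 37.3 ± 23.4 bp per Mb, the bases before it 116.5 ± 42.0 against 91.9 ± 14.1, and those after it 40.9 ± 9.81 against 26.8 ± 6.996 (SD, n = 4 each; exact permutation p = 0.314, 0.343 and 0.0857).

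Most Slc32a1 calls lay before the gene. The regions with peaks in all 8 libraries were at 22.8 to 21.4 kb before the start, at 3.91 to 2.48 kb before it, and at 14.04 to 14.99 kb after it. The last covers the near end of the neighbour Actr5, which encodes an actin-related protein of a chromatin remodelling complex, and its peaks had deposited folds of 4.48 to 6.33, at percentiles 87.7 to 98.5 of their lists. Nearer to the Slc32a1 start, a region 1.55 to 0.231 kb before it had peaks in all 4 MGE libraries and 3 CTX libraries, with none in CTX KCl 1. The lncRNA gene Gm14204 covers this stretch. The farthest region, at the edge of the window 53.6 kb before the start, had 327, 453, 292 and 287 bases in CTX KCl 1 and 2 and CTX unstimulated 1 and 2 and none in MGE libraries. In 500 bp bins, 2 at Slc32a1 (starting at 158557001 and 158595501) were called in every CTX and no MGE library, as were 3.51% of called bins.

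Slc32a1 was the gene whose KCl libraries lay below the unstimulated ones in both cultures. There the KCl libraries of CTX (137.0 and 135.4 bp per Mb) were below the unstimulated ones (206.8 and 145.1), and those of MGE (171.1 and 181.6) were below theirs (203.7 and 279.2). The mean difference was −39.7 in CTX and −65.1 in MGE cultures, −52.4 over both. With 36 ways of relabelling within culture, the exact two-sided permutation test gave p = 0.0556, the smallest it can, and 0.38 after Benjamini-Hochberg adjustment. This order in both cultures held for 5.5% of all windows, and in MGE cultures alone for 21.4%. Per Mb, none of the 3 genes had both KCl libraries above both unstimulated ones in a culture, an order found in 21.8% of windows in MGE and 22.3% in CTX. In plain kb, and with a −log10 q of at least 5, the KCl and unstimulated libraries overlapped in both cultures, and the mean difference in plain kb was −0.556 kb (exact permutation p = 0.5).

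At Gad2 the KCl difference was −3.69 bp per Mb in CTX and 10.2 in MGE cultures, and 3.28 over both (exact permutation p = 0.778, Benjamini-Hochberg adjusted p = 0.94). In plain kb both MGE KCl libraries (5.87 and 8.85 kb) were above both unstimulated ones (5.86 and 5.78 kb), the first by a narrow margin, and that order also held with a −log10 q of at least 5. With equal called bases that order was not found, and both CTX KCl libraries lay below both unstimulated ones. The share of all windows with these orders on these scales was not computed. At Gad1 the KCl difference was −17.4 in CTX and 2.29 in MGE cultures, and −7.56 over both (exact permutation p = 0.5, Benjamini-Hochberg adjusted p = 0.792). In CTX cultures both KCl libraries lay below both unstimulated ones at Gad1, as did 14.5% of all windows, an order that was not found in plain kb, with equal called bases or with a −log10 q of at least 5. No difference in the KCl response between cultures passed the test. The difference of responses, MGE minus CTX, was 19.7 at Gad1, 13.9 at Gad2 and −25.4 bp per Mb at Slc32a1 (exact permutation p = 0.222, 0.611 and 0.667, Benjamini-Hochberg adjusted p = 1.0 each). No window passed an unadjusted 0.05 for KCl or for the difference of responses, since the design cannot reach it.

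A single region followed KCl in both cultures. It lies 58.0 to 58.6 kb after the Gad2 start, inside the gene span (22680300 to 22680922). It held 303 and 242 called bases in CTX KCl 1 and 2 and 623 and 561 in MGE KCl 1 and 2, and no unstimulated library had a peak there. Its peaks had deposited folds of 3.22 to 4.01 and −log10 q values of 2.60 to 11.4. This pattern holds for 0.562% of regions in the genome, and the opposite one (all unstimulated, no KCl) is at 0.117% and was not found in the 3 windows. With peaks of a −log10 q of at least 5 the region was left in both MGE KCl libraries alone. When every list was limited to the same number of called bases, it no longer had a peak in all 4 KCl libraries.

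Other regions followed KCl in 1 culture. In MGE cultures, 4 regions had peaks in both KCl libraries and neither unstimulated one, a pattern of 8.02% of regions with an MGE peak. They were the Gad2 region just described, a region 107.5 to 107.9 kb after the Gad2 start, a region 26.0 kb before the Slc32a1 start, and a region 0.300 to 1.01 kb after the Slc32a1 start with 619 and 714 bases. The last is the nearest call after that start, and no CTX library had a peak there. The reverse, both MGE unstimulated libraries and neither KCl library, held in 3 regions, all at Slc32a1, against 3.8% of regions with an MGE peak. They were 10.6 kb before the start and 5.91 and 36.6 kb after it. These 2 counts, 4 and 3, were 8 and 3 without MGE KCl 1, 2 and 5 with equal called bases, and 1 and 0 with a −log10 q of at least 5, and the second was 6 without MGE KCl 2. In CTX cultures 1 region had each pattern, against 6.08 and 4.24% of regions with a CTX peak. The region gained with KCl was the Gad2 one, and the region lost, 49.8 to 48.6 kb before the Slc32a1 start, also had peaks in all 4 MGE libraries. Single regions carry no test, since 2 libraries against 2 cannot go below an exact two-sided p of 0.333.

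**Figure D3:**
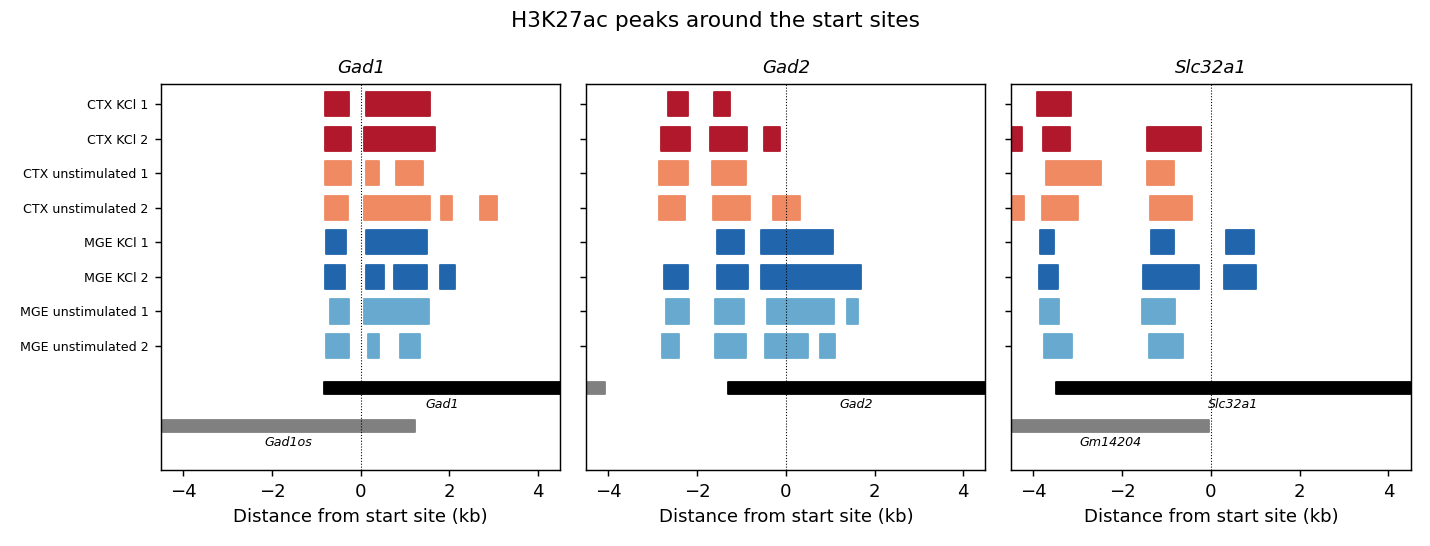
Peaks within a few kb of the RefSeq start of each gene, 1 row per library, with distance from the start in kb. At Gad1 a gap over the start is flanked by peaks in all 8 rows, at Gad2 the start is covered in 5 rows, and at Slc32a1 in none.

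The 3 starts differed in how peaks sat around them. The Gad1 start lay outside every peak, and in all 8 libraries the peak before it ended 226 to 361 bases away and the peak after it began 69 to 162 bases away. Of 17274 coding genes, 169 (0.978%) had peaks within 2 kb on both sides but not over the start in all 8 libraries, and 11.5% had the start in a peak in all 8. Among the 7144 genes with a peak within 2 kb of the start in all 8 libraries, which are 41.4% of coding genes, the flanked pattern made up 2.37%. The Slc32a1 start lay in no peak in any library. Peaks stood on both sides of it within 2 kb in both MGE KCl libraries only, beginning 344 and 300 bases after it in MGE KCl 1 and 2. These positions were examined after the data were seen.

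**Figure D4:**
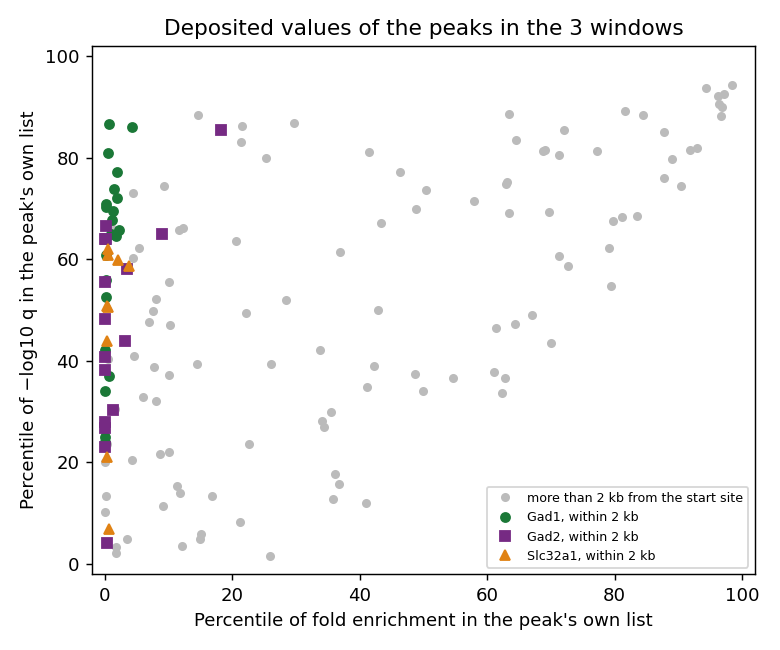
Each peak of the 3 windows by the percentile of its deposited fold (horizontal) and of its −log10 q (vertical) in its own list, coloured where it lies within 2 kb of a start and grey elsewhere. The coloured points lie at fold percentiles of at most 18.2 and spread from 4.22 to 86.7 on the q axis.

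The peaks at the 3 starts had low fold enrichment for their lists, while their significance varied more widely. At Gad1 the highest fold within 2 kb of the start was 1.72 to 2.33, at percentiles 0.0944 to 4.21 of each library's list, while the −log10 q stood at percentiles 55.9 to 86.7. At Gad2 the fold was 1.61 to 2.77, at percentiles 0.0359 to 18.2, with the −log10 q at 40.8 to 85.5. At Slc32a1 the fold was 1.83 to 2.299 in the 7 libraries with a peak there, at percentiles 0.262 to 3.82, with the −log10 q at 6.84 to 62.1. At each start the fold percentile was lower in every MGE library than in any CTX library with a peak. In MGE and CTX libraries it was 0.0944 to 0.693 and 1.44 to 4.21 at Gad1. The ranges were 0.0359 to 0.156 and 3.21 to 18.2 at Gad2, and 0.262 to 0.540 and 0.640 to 3.82 at Slc32a1. The cause of this order was not tested. Gad1 and Gad2 are among 45 of the 7144 genes (0.63%) whose highest fold near the start was under the 20th percentile in all 8 libraries, and Gad1 is among the 23 (0.322%) that also had a −log10 q above the median in all 8. The median over genes lay between percentiles 85.6 and 91.9. Folds were ranked within each list, so the order of MGE and CTX given here compares percentiles between lists of different length.

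Among 18 other genes of GABA and glutamate handling, 2 had all MGE libraries above all CTX libraries, against 10.9% of windows, and 5 the reverse, against 10.8%. They were Abat, the transaminase that breaks GABA down (mean levels of 304.0 and 203.6 bp per Mb in MGE and CTX), and Slc12a5, the chloride exporter KCC2 that makes GABA inhibitory (252.1 and 173.0). Higher in CTX were the GABA and betaine transporters Slc6a12 (13.0 in MGE and 64.3 in CTX) and Slc6a13 (22.1 and 56.6), which share part of their windows, the glutamate dehydrogenase Glud1 (49.9 and 118.0), the glutamine transporter Slc38a3 (131.7 and 297.6) and the astrocytic glutamate transporter Slc1a3 (55.5 and 253.3). Each of the 7 had an exact permutation p of 0.0286 and a Benjamini-Hochberg adjusted p of 0.132. The median ratio of MGE to CTX was 0.787 over the 18 genes, 1.34 over Gad1, Gad2 and Slc32a1, and 1.06 over all windows. In plain kb the separation was lost at Abat and Slc12a5 and kept at the 5 CTX-high genes, so that of these genes Gad2 alone then had all MGE libraries higher. That scale leans to CTX in all windows, with MGE above in 2.04% and CTX above in 15%. With every list limited to the same called bases, Abat, Slc6a12 and Slc6a13 no longer separated the cultures and Slc12a5 still did, and with a −log10 q of at least 5 only Slc1a3 of the 7 did. With KCl, 4 of the 18 had both KCl libraries above both unstimulated ones in each culture (Slc6a12, Gls2, Slc1a3 and Slc12a2; 9.12% of windows) and 1 had them below (Slc6a11, a glial GABA transporter; 5.5% of windows), each with an exact permutation p of 0.0556 and an adjusted p of 0.38. In plain kb, and with a −log10 q of at least 5, Gls2 alone was above in both cultures and 0 genes were below.

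**Figure D5:**
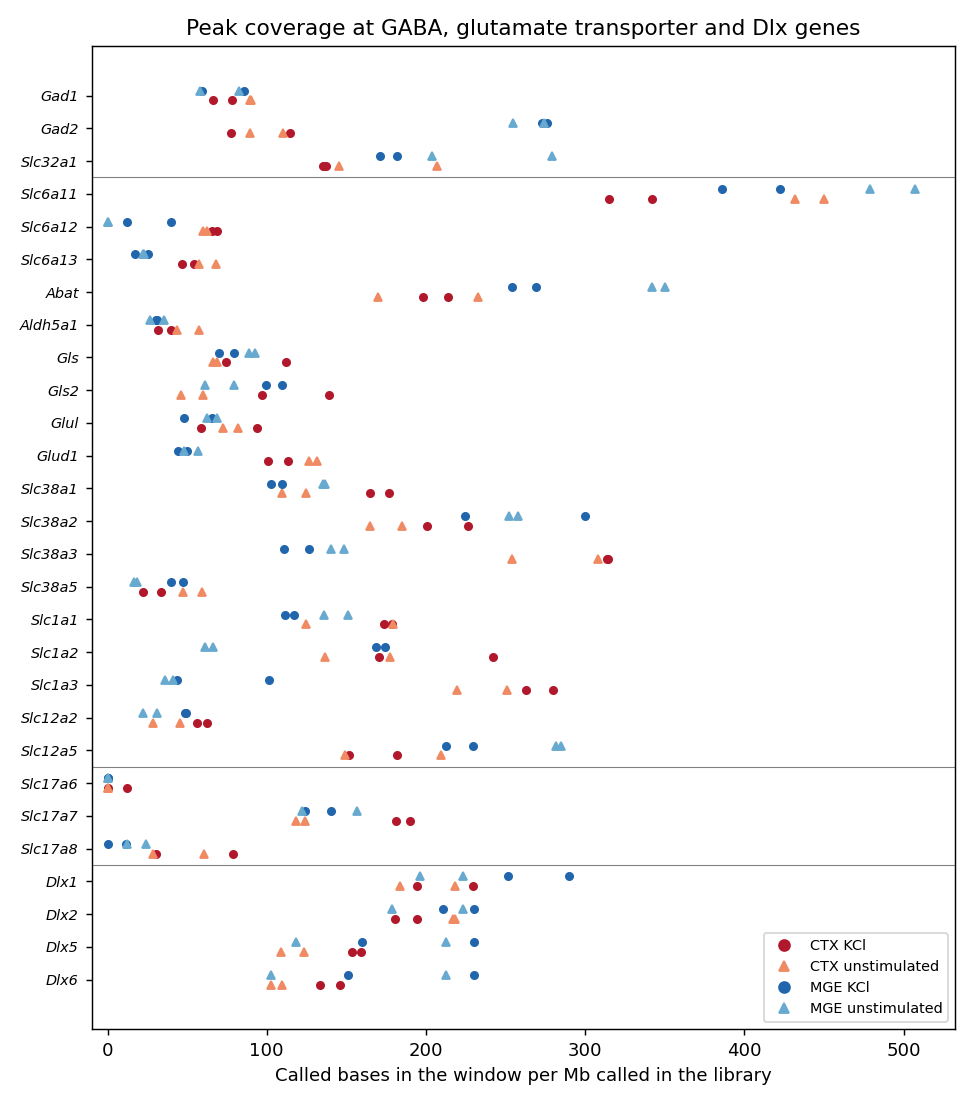
Called bases per Mb in each of the 8 libraries for Gad1, Gad2, Slc32a1, the 18 other genes of GABA and glutamate handling, the vesicular glutamate transporter genes and the Dlx genes. At Gad2 the MGE points (254.4 to 276.1) lie right of the CTX points (77.4 to 114.8), and at Slc1a3 (means of 55.5 and 253.3) they lie left of them.

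Genes of the other transmitter and known regulators were read for comparison. The vesicular glutamate transporter genes had 135.7 bp per Mb in MGE and 153.4 in CTX at Slc17a7 (exact permutation p = 0.371), 11.9 and 49.8 at Slc17a8 (exact permutation p = 0.0286, Benjamini-Hochberg adjusted p = 0.132), and 0 and 3.08 at Slc17a6. With equal called bases, or a −log10 q of at least 5, Slc17a8 no longer separated the cultures. The Dlx genes, whose products are homeodomain regulators of GABAergic neuron genes, did not separate the cultures: Dlx1 had 240.3 and 206.4, Dlx2 210.7 and 202.5, Dlx5 180.2 and 136.3, and Dlx6 174.1 and 123.1 bp per Mb in MGE and CTX (exact permutation p = 0.171, 0.629, 0.171 and 0.2). Dlx1 and Dlx2 share most of a window, as do Dlx5 and Dlx6.

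Across the 8 libraries the 3 windows did not follow one another closely. As a description over 8 libraries that share their totals and treatments, Pearson's r was −0.437 between Gad1 and Gad2, −0.347 between Gad1 and Slc32a1 and 0.608 between Gad2 and Slc32a1. The windows most like each member were picked by r over these 8 libraries among 17486 genes. For Gad1 they were Fndc5 (0.951), Ckm (0.927), Kdm5b (0.911), Methig1 (0.905) and Cops8 (0.902). For Gad2 they were Gadl1 (0.994) and Tecrl (0.991), then 2300003K06Rik, Gm11559 and Gm11564 (0.988 each, with the same peaks). For Slc32a1 they were Pabpc1 (0.982), Zfp873 (0.980), Krt1 (0.975), Rpl30 (0.971) and Fgf20 (0.968). These are descriptions, and no test was made.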

How the data were processed

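H3K27ac was measured by chromatin immunoprecipitation (antibody ab4729, 1% formaldehyde for 10 min, 50 bp reads) in 8 libraries, per the labels' protocols. The build was mm10 and the tools included MACS3 3.0.0a7, Bowtie2 2.3.3, deepTools 3.4.3 and cutadapt 1.18, per the submitters' processing notes. What each tool did, with which settings, input control or duplicate removal, is not stated there. The authors deposited 1 broad-peak list per library, named unfiltered. For each peak the authors deposited a fold enrichment (a linear ratio), a −log10 p, a −log10 q (lowest 1.30 to 1.35 in a list) and a display score, which was used nowhere. Fold and q were ranked within a list, and near the starts the fold percentiles of MGE and CTX lists were set side by side. Depth is unknown, and acetylation too weak for the caller leaves no peak, so absence from a list is not lack of acetylation.

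Spans and promoter sequences came from RefSeq tables of GRCm38.p6 and all 3 genes matched by symbol. Called bases in each window of chromosomes 1 to 19 and X were divided by the Mb called in the library. Mean differences were tested by exact two-sided permutation, over 70 splits for culture and 36 relabellings within culture for KCl, with Benjamini-Hochberg adjustment over 18557 windows with called bases. A 500 bp bin was called when peaks filled at least 50% of it. Regions were merged overlapping or touching peaks, an addition made after seeing the data. Groups came from the titles. The code was tested on simulated data (Python 3.11.15, numpy 2.4.6, pandas 2.3.3).

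The 3 genes, the gene lists and the markers were chosen with earlier results of these data known. One gene each of the GABA list and of the MGE marker list is not reported here and entered none of their counts. Named are the 3 genes, genes touching a window, listed genes whose cultures do not overlap (up to 6 more were allowed and are not given), the 5 most correlated genes per member, and peaks over starts, in culture-bound or KCl-bound bins or regions, or with the highest fold. Alternatives were a −log10 q of at least 5, windows of 20 and 100 kb or the span alone, plain kb, equal called bases, a replicate block, permutation within treatment, and leaving out each library.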

Additional observations from a re-analysis of the deposited data

How the results depend on the processing

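Levels are bp per Mb unless stated and p-values are from exact permutation tests. Scaling matters because the library totals differ: the median log2 ratio of MGE to CTX over all windows was 0.10 per Mb, −0.39 in plain kb, −0.15 with equal called bases and 0.11 with a −log10 q of at least 5. The Gad2 culture difference kept its direction throughout. It passed 0.05 in windows of 20 and 100 kb, in the span alone, in plain kb and with equal called bases, and missed it with a −log10 q of at least 5 (118.5, p = 0.0571), with the replicate block (171.5, p = 0.125) and with permutation within treatment (171.5, p = 0.0556), where 0.125 and 0.0556 are the smallest those designs allow. For Gad1 it turned to 13.9 with 100 kb and passed the threshold at −1.08 kb in plain kb and −35.1 with equal called bases (exact permutation p = 0.0286 each). For Slc32a1 it turned to −33.3 with a −log10 q of at least 5 and to −0.249 kb in plain kb. The number of the 3 genes whose cultures do not overlap was 1, against 0 with a −log10 q of at least 5 and 2 in plain kb and with equal called bases. The 2 went in opposite directions, Gad2 with MGE above and Gad1 with CTX above. MGE was above in 10.9% of all windows per Mb and CTX in 10.8%. These shares were 2.04 and 15% in plain kb, 7.2 and 11.8% with equal called bases, and 4.32 and 4.37% with the q limit.

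The KCl difference turned at Gad1 to 6.49 with a −log10 q of at least 5 and to 16.7 with 100 kb, and at Gad2 to −2.10 with 20 kb and −22.4 with equal called bases. The difference of responses turned at Gad1 to −56.8 with a −log10 q of at least 5, at Gad2 to −7.55 with 20 kb and −18.3 with 100 kb, and at Slc32a1 to 3.95 with a −log10 q of at least 5, 6.60 with 100 kb, 41.4 in the span, 0.034 kb in plain kb and 0.614 with equal called bases. Bins called in all CTX and no MGE libraries at Gad1 became 1 with any overlap. The Gad2 MGE-only bins became 0 with a −log10 q of at least 5. Slc32a1 MGE-only bins became 1 with any overlap and with equal called bases, and its CTX-only bins, reported as 2, became 0 with a −log10 q of at least 5 and 1 with 20 kb or equal called bases. With a −log10 q of at least 5 the 36 regions became 19, of which 0 were MGE-only, 0 CTX-only, 0 in all KCl libraries alone, 1 in both MGE KCl libraries alone and 0 in both MGE unstimulated libraries alone. With equal called bases CTX-only regions became 1, all-KCl regions 0, MGE KCl regions 2 and MGE unstimulated regions 5, and merging peaks up to 500 bp apart left 1 CTX-only region. The cause of these changes was not tested.

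Leaving out each library in turn, the culture difference ranged from −14.5 to −5.17 at Gad1, 164.7 to 177.1 at Gad2 and 29.4 to 69.7 at Slc32a1. The KCl difference ranged from −14.1 to −0.983, −6.07 to 12.6 and −71.3 to −33.6, and the difference of responses from 6.54 to 32.9, −4.77 to 32.6 and −63.1 to 12.3, in the same order. CTX-only bins ranged from 0 to 1 at Gad1 (1 without CTX KCl 1) and 2 to 3 at Slc32a1, and MGE-only bins from 2 to 3 at Gad2 and 0 to 1 at Slc32a1 (1 without MGE KCl 2). MGE KCl regions ranged from 4 to 8 (8 without MGE KCl 1), MGE unstimulated regions from 3 to 6 (6 without MGE KCl 2), MGE-only and CTX-only regions from 2 to 3, and all regions from 35 to 37. The replicate numbers were not taken to pair the libraries: the correlation of library 1 minus library 2 over 18557 windows ran from −0.120 to 0.522, above 0.1 in 3 of 6 pairs of groups (highest between the CTX groups) and not in the others. The replicate block changed no other call. Depth is unknown, which limits what absence from a list shows.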

Other observations

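The low fold at the starts of Gad1 and Gad2 was shared by a short list of genes. Among the 45 genes whose highest deposited fold within 2 kb of the start was under the 20th percentile of its list in all 8 libraries, ordered by their highest percentile, Gad1 was 7 and Gad2 was 36. Ahead of Gad1 stood Tnrc18, Bcl11a, Nr2f1, Cxxc4, Zmynd8 and Mtss2. These genes were chosen after their values were seen, some of the 45 share a start region with a neighbour, and no test was made.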
